A study of Homo sapiens with 12 samples.

Results

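The comparison described here is between 2 genotypes of HepG2 cells under the same drug. Of the 12 RNA libraries in the series, 6 were taken by their labels: 3 from wild-type cells and 3 from cells in which ARID1B was knocked out with CRISPR/Cas9 (ARID1B-KO), all treated with sorafenib at 5 µM for 48 h. The other 6 libraries, 3 of each genotype with the vehicle DMSO at 0.1%, served to show which genotype differences were present without the drug. HepG2 is a human liver tumour line that keeps many functions of hepatocytes and was grown in serum-containing medium. The design text calls the replicates biological. The labels give neither the number of knockout clones nor the targeted exon, and a difference due to ARID1B and one due to the history of a clone cannot be told apart in this design. P-values measure the spread between these libraries.

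ARID1B is a large DNA-binding subunit of the BAF (SWI/SNF) chromatin remodelling complex, which uses ATP to move nucleosomes and keeps enhancers accessible. It shares its place in the complex with the paralog ARID1A, and a complex contains only one of them. Sorafenib blocks RAF kinases and several growth factor receptor kinases, so output genes of the RAS-ERK cascade are common readouts of its action. The study's title concerns resistance of liver cancer cells to sorafenib after loss of ARID1B, and the comparison under the drug bears on that question at the level of RNA only, since survival of the cells was not among the data analysed here.

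ARID1B itself, the gene with the identifier ENSG00000049618.25, lies on the plus strand of chromosome 6 between 156776020 and 157210779 (GRCh38). Its level, in CPM (counts scaled to a common library size), was 67.5, 69.1 and 62.3 for wild type under sorafenib, in the order of the replicate numbers, and 35.6, 25.9 and 26.5 for ARID1B-KO. All ARID1B-KO libraries lay below all wild-type libraries, and RNA of the gene remained. The log2 fold change was -1.18 ± 0.11 (SE, n = 3 in each group; edgeR adjusted p = 8.89e-06). Levels of RNA do not show whether protein was made from it. Within the gene, the transcript ARID1B-211 made up 43.96% of the gene's TPM (an abundance scaled to transcript length and library size) in wild type and 48.3% in ARID1B-KO (limma adjusted p = 0.666), a difference that did not pass the test. It is a model of 1551 bases at 157206617 to 157209150. The only other tested transcript, ARID1B-215 with a retained intron (157198509 to 157208700), did not pass either (limma adjusted p = 0.5725). Both lie near the end of the gene, so their shares do not describe transcripts that span it. In RNA from whole cultures, fewer cells that express a gene and less RNA per cell cannot be told apart.

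Of 27 tested subunits of the BAF family, 8 differed, 3 higher and 5 lower in ARID1B-KO (ARID1B itself among the lower), beside 27% of all tested genes called either way. SMARCA2, one of the alternative ATPases of the complex, stood at 44.8, 45.4 and 47.1 CPM in wild type and at 19.7, 19.1 and 21.9 CPM in ARID1B-KO. The groups were far apart, with a log2 fold change of -1.18 ± 0.10 (adjusted p = 2.84e-06), as large as that of ARID1B itself. The core scaffold subunits SMARCC1 (-0.44 ± 0.08) and SMARCC2 (-0.51 ± 0.10) fell by less, and so did BICRAL (-0.55 ± 0.12), a subunit of the non-canonical BAF complex. The higher subunits were SMARCD3 (2.03 ± 0.41, from 0.323 to 1.35 CPM), SS18L1 (0.62 ± 0.13) and BCL7A (0.41 ± 0.11), whose call was lost without wild-type sorafenib replicate 3 or ARID1B-KO sorafenib replicate 2. BICRAL, SMARCD3, SS18L1 and BCL7A were named after their values were seen. ARID1A, the paralog, stood at 79.7 to 95.2 CPM in wild type and 74.2 to 87.1 CPM in ARID1B-KO (-0.12 ± 0.11, adjusted p = 0.446), with overlapping groups. ARID2, the subunit in the same position of the related PBAF complex, was at 0.22 ± 0.10 (adjusted p = 0.106). With the effective-length offset described below, the calls of SMARCC1 (adjusted p = 0.305), SMARCC2 (0.953) and BCL7A (0.0894) were lost.

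The 6 sorafenib libraries held 20135596 to 29265843 estimated counts, with 9.08% to 12.27% from the mitochondrial genome. On a principal component analysis of these 6, the first component, with 55% of the variance, separated the genotypes, and the second, with 14.9%, spread the 3 ARID1B-KO libraries from -34.3 to 34.3 against -17.3 to 12.3 for wild type. Albumin RNA alone made up 6.86% to 9.63% of the counts in ARID1B-KO and 4.14% to 4.38% in wild type. The 10 most abundant genes took 19.3% to 25.33% and 16.94% to 19.05%. The normalization used (TMM) trims such genes.

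Under sorafenib, 3463 of 12821 tested genes differed between the genotypes at an adjusted p under 0.05 (27%): 1695 higher in ARID1B-KO (13.2%) and 1768 lower (13.8%). These shares are the background for every count of list members below, and a list near them does not stand out. Over 2-fold differences were called for 434 genes higher (3.39%) and 417 lower (3.25%). The libraries of the 2 genotypes did not overlap for 42.7% of all tested genes, so the lack of overlap in a gene below is common. The median log2 fold change of all tested genes was -0.004, a value that the normalization sets near 0. With an offset for the mean effective length of each gene's transcripts in each library, 2049 genes were called in place of 3463, of which 1786 were shared. All 1786 kept their direction. Of the 168 called genes named here, 24 lost their call with this offset and under no other alternative, among them ABCC4, ALDH1L2, BIRC3, BMF, CDH5, CDKN1A, COL7A1, GLS2, IFI35, KLHL13, KRT19, MRAS, MVK, NFKB1, PDGFRB, PPARGC1A, SC5D, SLC22A18, SMAD6, SMARCC1, SMARCC2, SULT1C2 and VWF.

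Many of the genotype differences under the drug were also called without it. The DMSO libraries, which share no library with the sorafenib ones but come from the same cells, gave 3563 called genes (27.8%; 14.3% higher and 13.5% lower, 2.88% and 4.25% over 2-fold), and 2017 genes were called in both comparisons, 1024 higher in both, 962 lower in both and 31 in opposite directions. That is 58.2% of the sorafenib calls and 56.6% of the DMSO calls. Over all tested genes, as a description, Pearson's r between the 2 sets of log2 fold changes was 0.69. Of the 851 genes called and changed over 2-fold under sorafenib, 552 were called and over 2-fold in the same direction with DMSO, and 196 were not called with DMSO. Calling in one condition only is not a test of a difference between conditions. That test, the interaction, called 107 genes (0.835%), which are described further on.

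**Figure D1:**
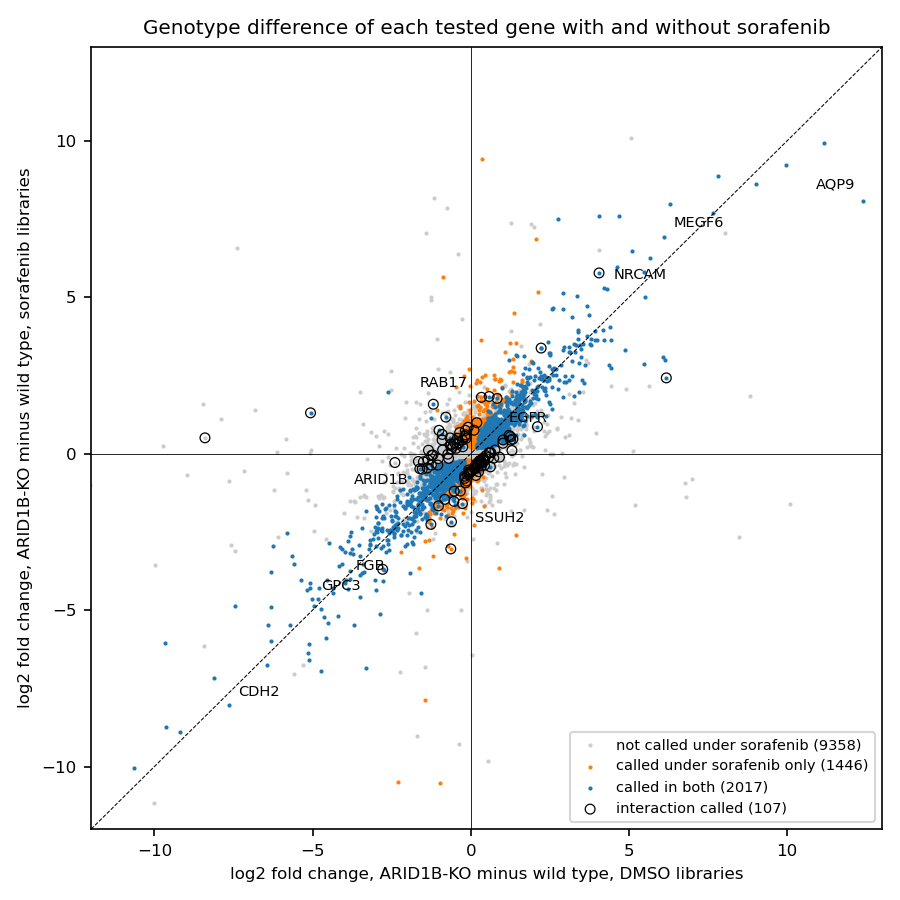
Each point is a tested gene, with its log2 fold change (ARID1B-KO minus wild type) in the DMSO libraries on the horizontal axis and in the sorafenib libraries on the vertical axis. Blue genes (2017) were called in both, orange genes (1446) under sorafenib only, grey genes were not called under sorafenib, and circles mark the 107 genes with a called interaction; most blue points lie near the dashed line of equal difference.

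The 15 largest rises and falls covered genes of many functions. They were taken only from called genes whose sorafenib groups did not overlap, so their lack of overlap follows from the choice. CDH2 (chromosome 18, 27932879 to 28177946, minus strand), which encodes the adhesion protein N-cadherin, stood at 69.8, 69.8 and 56.8 CPM in wild type and at 0.547, 0.0917 and 0.0494 CPM in ARID1B-KO. The 3 wild-type libraries held it at an ordinary level and the 3 ARID1B-KO libraries almost lacked it. The log2 fold change was -8.05 ± 0.40 (adjusted p = 5.86e-08), beside -7.65 with DMSO. CDH1, which encodes E-cadherin, did not pass the test, at 4.35 to 8.14 CPM in wild type and 5.97 to 11.1 CPM in ARID1B-KO (0.29 ± 0.35, adjusted p = 0.591).

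GPC3 (chromosome X, 133535745 to 133987100, minus strand), a heparan sulfate proteoglycan used as a liver tumour antigen, stood at 571, 643 and 537 CPM in wild type and at 31.4, 22.3 and 15.999 CPM in ARID1B-KO. It was 25.1-fold lower (adjusted p = 2.08e-08). The tight junction protein CLDN6, another oncofetal surface antigen, was 29.2-fold lower (adjusted p = 1.77e-07). Further large falls were found for EMILIN1, an elastic fibre glycoprotein (-5.22 ± 0.25), the metalloprotease MEP1A (-6.61 ± 0.38), the sulfotransferase CHST9 (-6.07 ± 0.57), RTL8C (-7.17 ± 0.45), DTNA (-4.45 ± 0.28), XIRP2 (-4.36 ± 0.28), KLHL13 (-4.95 ± 0.64) and the pseudokinase TRIB2 (-4.33 ± 0.39).

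Other surface genes rose in ARID1B-KO. NRCAM, a neuronal adhesion protein of the immunoglobulin family, stood at 0.43, 0.574 and 0.586 CPM in wild type and at 23.3, 21.3 and 17.4 CPM in ARID1B-KO, a 39.0-fold difference (adjusted p = 5.34e-09). Its levels in the 3 ARID1B-KO libraries were close together and far above every wild-type library. MEGF6, with EGF-like domains, stood at 0.251, 0.335 and 0.46 CPM against 44.8, 38.02 and 46.1 CPM (6.94 ± 0.26), and the collagen gene COL26A1 averaged 0.317 CPM against 24.7 CPM (6.26 ± 0.28). AQP9, the hepatocyte channel for glycerol and water, held 2 counts over the 3 wild-type libraries and 595 over the 3 ARID1B-KO libraries, a ratio of 319 (95% interval 87.9 to 2639). NEGR1, another adhesion protein, held 1 count and 499 counts, a ratio of 535 (95% interval 95.6 to 21169). These exact intervals cover counting error only, since PCR copies were not separated from molecules.

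The remaining large rises covered several functions. They were the ferric reductase CYBRD1 (5.96 ± 0.44), the melanosome transport protein MYRIP (5.79 ± 0.37), the phosphatase PPM1L (5.78 ± 0.24), C14orf132 (5.27 ± 0.56), RANBP3L (4.72 ± 0.38), the transcription factor MAF (4.43 ± 0.22, from 1.47 to 3.01 CPM up to 44.8 to 49.97 CPM), WDR72 (3.95 ± 0.22) and the small GTPase RAB31 (3.93 ± 0.15). MAGT1, a magnesium transporter, varied among the ARID1B-KO libraries at 4.71, 3.76 and 14.1 CPM (4.49 ± 1.10, adjusted p = 0.0158), and its call was lost in the fit on the 6 sorafenib libraries with a replicate block.

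A few genes held 0 counts in every library of one genotype. ATP10A, a lipid flippase, held 413 counts over the wild-type libraries and 0 in ARID1B-KO, at least 128-fold lower (floor of 3 counts over the group, adjusted p = 3.34e-06). APCDD1, an inhibitor of WNT signalling, held 161 and 0, at least 50.1-fold lower. TWIST2, a transcription factor of mesenchymal cells, held 0 counts in wild type and 213 in ARID1B-KO, at least 76.1-fold higher, and the adenosine receptor ADORA1 held 0 and 165, at least 59.0-fold higher. The locus ENSG00000257411 held 0 and 348, at least 124-fold higher, and the long non-coding RNA ENSG00000290908 held 0 and 239, at least 85.4-fold higher. All of these were called.

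Not every gene at 0 was called. INTS3, a subunit of the Integrator complex, stood at 18.4, 18.5 and 0 CPM in wild type and at 0 in ARID1B-KO (adjusted p = 0.241), and PANK4 at 0, 7.66 and 7.07 CPM against 0 (adjusted p = 0.204). BTBD7, BORCS7-ASMT and ENSG00000276076 were likewise at 0 in part of the libraries of the group that held them. ZBTB12 (582 counts against 0) was called at an adjusted p of 0.0232 and lost its call without any 1 of wild-type sorafenib replicates 1, 2 and 3 and ARID1B-KO sorafenib replicates 2 and 3, and with the replicate block (adjusted p = 0.0591). The pseudogene RPS27P4 (547 against 0) is uncertain because its sequence is close to that of its parent gene.

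Among 19 oncofetal liver and progenitor markers, 3 were higher and 6 lower. Besides GPC3, SOX4 fell (-1.32 ± 0.19), whereas the surface protein CD24 (2.62 ± 0.14, from 4.04 to 24.9 CPM) and DLK1, a NOTCH-like protein of fetal liver (1.65 ± 0.17, from 683 to 2149 CPM), rose. AFP, the classical fetal liver marker, was at 17836 to 19104 CPM in wild type and 19878 to 28399 CPM in ARID1B-KO (0.40 ± 0.15, adjusted p = 0.0727) and was not called, though it passed without ARID1B-KO sorafenib replicate 3 (adjusted p = 0.0156). Of 18 cadherin and mesenchymal genes, 4 were higher and 5 lower, with the actin-binding protein TAGLN at -3.14 ± 0.17. Of 10 integrins 4 were lower and none higher (2 of the 3 outside chromosomes 2, 5, 6, 17 and 21, whose medians were shifted as described further on), and of 27 matrix genes 7 were higher and 5 lower, among them TIMP1 (-2.37 ± 0.22), THBS1 (-2.88 ± 0.25) and COL7A1 (2.10 ± 0.30).

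**Figure D2:**
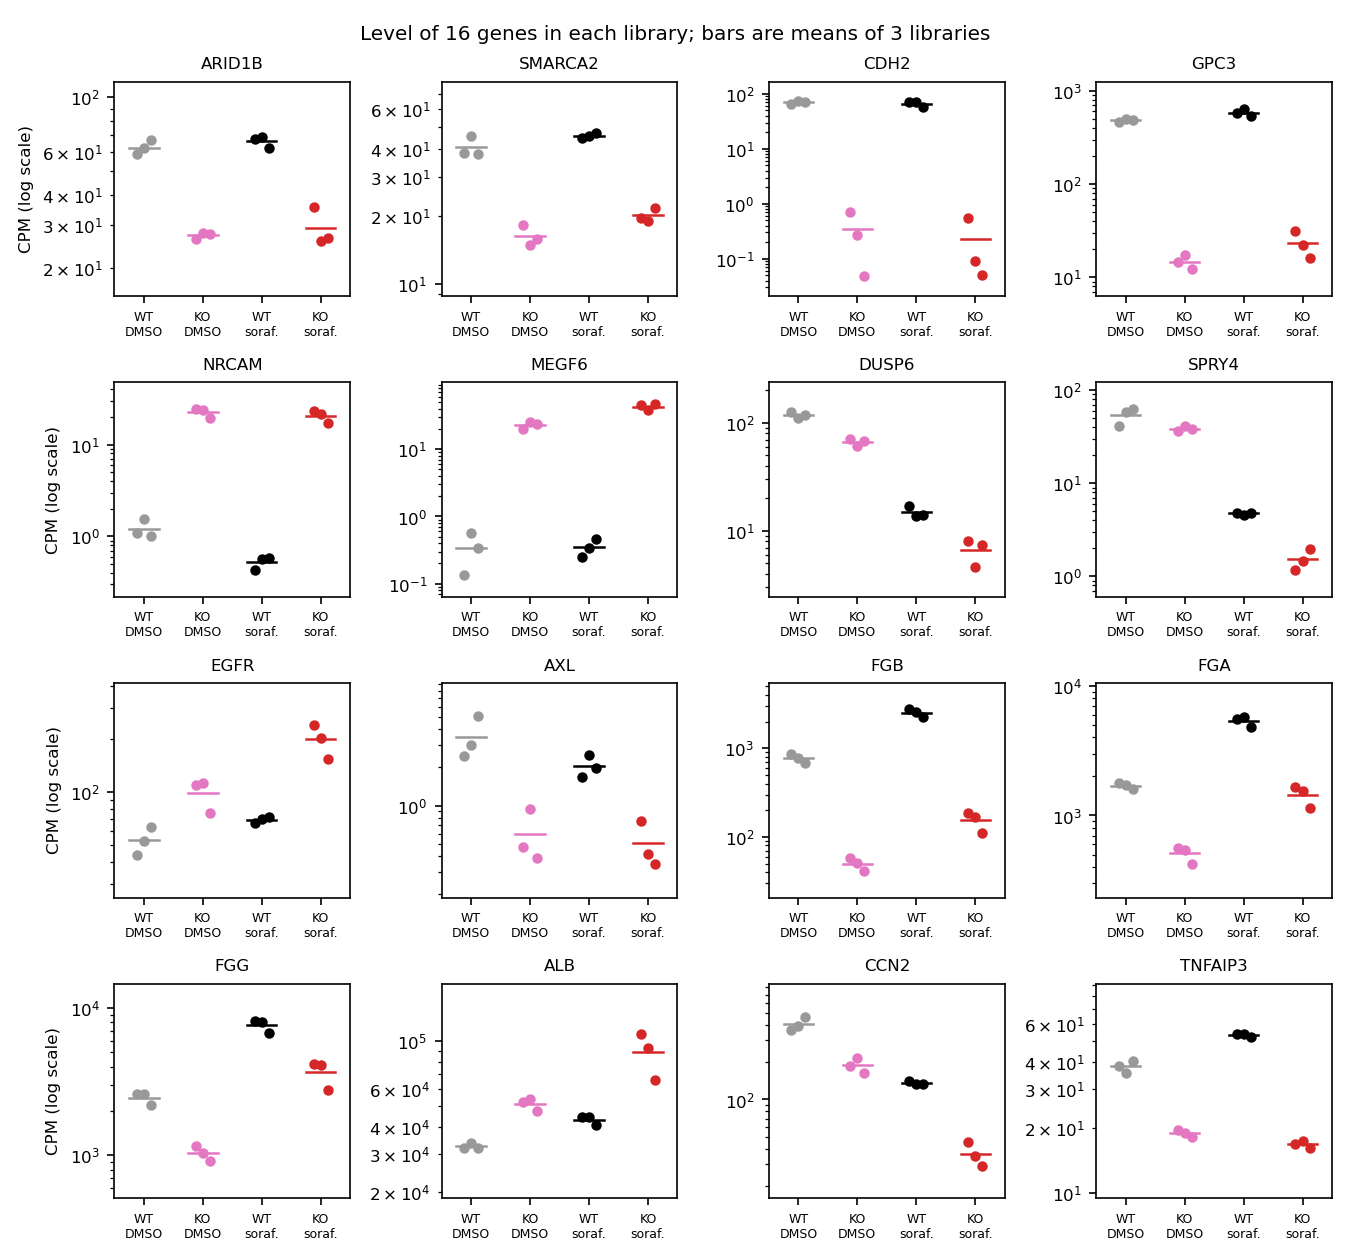
CPM on a log axis for 16 genes; each point is a library, each bar the mean of 3 libraries, and the 4 positions are wild type and ARID1B-KO with DMSO, then with sorafenib. ARID1B falls to about the same level with and without the drug, CDH2 and GPC3 are far lower in both ARID1B-KO groups, and DUSP6 and SPRY4 reach their lowest levels in ARID1B-KO with sorafenib.

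RNA of RAS-ERK output genes leaned lower in ARID1B-KO than in wild type, both under the RAF inhibitor and with DMSO. Of 20 tested output genes, 13 were lower and 2 higher (13.8% and 13.2% of all tested genes), with a median log2 fold change of -0.87. In the DMSO libraries 9 were lower and 3 higher (13.5% and 14.3% of all tested genes), with a median of -0.51. SPRY4, a feedback inhibitor of receptor kinase signalling, stood at 4.84, 4.60 and 4.86 CPM in wild type and at 1.18, 1.47 and 1.98 CPM in ARID1B-KO. The groups did not overlap, and the log2 fold change was -1.64 ± 0.20 (adjusted p = 8.22e-05), against -0.48 with DMSO (interaction adjusted p = 0.0531, which did not pass). DUSP6, the phosphatase of ERK, stood at 17.1, 13.8 and 13.98 CPM against 8.04, 4.63 and 7.36 CPM (-1.16 ± 0.16, adjusted p = 0.000225).

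The ETS factors of this cascade differed in the same way. ETV4 stood at 24.8, 24.4 and 23.3 CPM in wild type and at 8.33, 7.20 and 9.68 CPM in ARID1B-KO (-1.52 ± 0.10, adjusted p = 3.55e-07). ETV5 was at -0.87 ± 0.09 and the feedback inhibitor SPRED2 at -0.67 ± 0.08. The 2 members that were higher were the cyclin gene CCND1, at 187 to 198 CPM against 278 to 281 CPM (0.54 ± 0.09), and PHLDA1 (0.27 ± 0.08), whose call was lost without any 1 of the sorafenib libraries except ARID1B-KO replicate 3. MYC was 1.23-fold lower (adjusted p = 0.0253), a call lost without wild-type sorafenib replicate 1 or 3 or ARID1B-KO sorafenib replicate 1 or 2. With the genes on chromosomes 2, 5, 6, 17 and 21 set aside, for the reason given below, 9 of 16 output genes were lower and 2 higher.

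Receptor tyrosine kinases include several targets of sorafenib and bypass routes around it. Of 19 tested, 2 were higher and 5 lower, beside 13.2% and 13.8% of all tested genes. The share that was higher was thus no larger than over all tested genes. EGFR, the epidermal growth factor receptor, stood at 66.1, 70.4 and 72.3 CPM in wild type and at 239, 203 and 155 CPM in ARID1B-KO. It was 2.86-fold higher (adjusted p = 8.21e-05), with all ARID1B-KO libraries above all wild-type ones, and 1.52 on the log2 scale compares with 0.90 with DMSO (interaction adjusted p = 0.264). AXL, a receptor of mesenchymal cells, was 3.97-fold lower (adjusted p = 0.00369) at 2.05 against 0.505 CPM. TYRO3 (-1.18 ± 0.17), EPHA2 (-0.93 ± 0.16) and PDGFRB (-1.53 ± 0.30) were also lower. ERBB3 was 1.37-fold lower (adjusted p = 0.0417), a call that held in 6 of 19 alternative settings, and MST1R was higher at 0.732 against 1.54 CPM (1.07 ± 0.33), a call lost without any 1 of the 6 sorafenib libraries. MET (-0.35 ± 0.16, adjusted p = 0.114, and 0.0471 without ARID1B-KO sorafenib replicate 1), FGFR4 (-0.19 ± 0.18, adjusted p = 0.474) and the ligand gene VEGFA (-0.23 ± 0.10, adjusted p = 0.119) did not pass the test.

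Genes that control cell death were compared in both roles. BMF, a pro-apoptotic BCL2 relative (its call was lost with the effective-length offset, adjusted p = 0.309), was at 51.3, 52.5 and 58.9 CPM in wild type and 74.5, 65.9 and 66.9 CPM in ARID1B-KO (0.35 ± 0.09, adjusted p = 0.00856), with no overlap. BCL2L11, which encodes BIM, was at 11.7, 11.7 and 8.08 CPM against 7.03, 3.16 and 3.95 CPM (-1.15 ± 0.36, adjusted p = 0.0326). The 2 pro-apoptotic genes that passed thus lay in opposite directions, out of 9 tested. The BCL2L11 call was lost without wild-type sorafenib replicate 1 or 2 or ARID1B-KO sorafenib replicate 2 or 3. On the pro-survival side, of 9 tested genes BCL2L1, which encodes BCL-XL (-0.30 ± 0.08), and the inhibitor of apoptosis BIRC3 (-1.18 ± 0.28) were lower and CFLAR (0.26 ± 0.07) was higher. The call of BCL2L1 was lost without wild-type sorafenib replicate 3 or ARID1B-KO sorafenib replicate 2, and that of CFLAR without wild-type sorafenib replicate 3. MCL1 was at 135 to 145 CPM and 133 to 134 CPM (-0.06 ± 0.07, adjusted p = 0.61).

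Transporters that move drugs across the membrane were compared next. Of 10 tested uptake transporters, 4 were higher and none lower. Outside chromosomes 2, 5, 6, 17 and 21, 2 of 4 were higher. Examples are SLC22A7 (0.97 ± 0.16), SLC22A9 (1.06 ± 0.23) and SLC22A18 (1.55 ± 0.34), members of a family that carries organic ions. With the effective-length offset, the call of SLC22A18 was lost.

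The efflux pumps ABCB1, ABCC2 and ABCG2 did not pass the test. ABCB1 (P-glycoprotein) was at 77.4 to 99.8 CPM in wild type and 47.8 to 77.9 CPM in ARID1B-KO (-0.43 ± 0.18, adjusted p = 0.101, and 0.0453 without ARID1B-KO sorafenib replicate 1), ABCC2 was at 0.15 ± 0.14 (adjusted p = 0.483) and ABCG2 at -0.02 ± 0.15 (adjusted p = 0.946). Of 14 efflux transporter genes, 3 were higher and 2 lower. The higher ones were lipid exporters: the sterol transporter subunits ABCG5 (1.58 ± 0.17) and ABCG8 (0.67 ± 0.15), and ABCA1 (0.44 ± 0.11, named after its value was seen). The vault protein MVP (-0.55 ± 0.12) and ABCC4 (-0.59 ± 0.14) were lower.

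Drug-metabolising genes were examined in the same way. Of 14 tested cytochrome P450 genes, 6 were higher and none lower, with a median of 0.63 (4 higher, 2 lower and 0.26 with DMSO). CYP3A7, the fetal form of the CYP3A family, stood at 4.45, 5.46 and 5.40 CPM in wild type and at 17.5, 19.5 and 14.96 CPM in ARID1B-KO, without overlap (1.76 ± 0.14, adjusted p = 1.64e-06). CYP3A4, the main enzyme that oxidises sorafenib in liver, was under 1 CPM in all 6 libraries and did not pass (0.21 ± 0.81, adjusted p = 0.881). The fatty acid hydroxylases CYP4F2 (1.67 ± 0.20), CYP4F12 (0.62 ± 0.09) and CYP4F3 (0.63 ± 0.11) were higher, though members of this family share sequence and reads between them are divided by estimate.

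Of 24 conjugation genes 9 were higher and 2 lower, with a median of 0.28. Outside chromosomes 2, 5, 6, 17 and 21, 5 of 17 were higher and 2 lower, with a median of -0.012. The glutathione transferase GSTA1 stood at 142, 119 and 154 CPM in wild type and at 577, 700 and 737 CPM in ARID1B-KO (2.28 ± 0.14, adjusted p = 1.13e-07). GSTA2 rose with it (2.14 ± 0.11), and both are near-identical copies. SULT1C2 was higher (1.61 ± 0.21) and UGT2B11 lower (-1.60 ± 0.16). Among 25 targets of the oxidative stress factor NRF2, 9 were higher and 2 lower. The aldo-keto reductases went both ways: AKR1B10 (2.00 ± 0.13), AKR1C1 (1.198 ± 0.12) and AKR1C3 (0.96 ± 0.12) rose, and AKR1C2 fell from 282 to 59.1 CPM (-2.26 ± 0.10, adjusted p = 7.88e-09). AKR1C1 and AKR1C2 differ at few positions, so the division of reads between them is uncertain.

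Secreted liver proteins split into groups that moved in opposite directions. ALB, which encodes albumin, was 2.05-fold higher in ARID1B-KO (adjusted p = 0.00136) and the 3 ARID1B-KO libraries varied most, with a mean of 88912 CPM and an SD of 21232. The fibrinogen genes FGA, FGB and FGG, neighbours on chromosome 4 that encode the 3 chains of one clotting protein, were all lower. FGB (plus strand, 154563011 to 154572807) stood at 2764, 2549 and 2252 CPM in wild type and at 185, 168 and 111 CPM in ARID1B-KO. FGB was 16.3-fold lower (adjusted p = 3.78e-08), and no library of one genotype came near the other.

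FGA (154583126 to 154590742, minus strand) stood at 5523, 5758 and 4820 CPM against 1653, 1542 and 1151 CPM and was 3.70-fold lower (adjusted p = 2.84e-06). FGG (154604134 to 154612967, minus strand) stood at 8187, 7981 and 6810 CPM against 4173, 4092 and 2765 CPM and was 2.08-fold lower (adjusted p = 0.000595). The 3 chains thus differed by unequal amounts within the same libraries. With DMSO the log2 fold changes were -1.73 for FGA, -3.95 for FGB and -1.25 for FGG, near those under the drug (-1.89, -4.03 and -1.06).

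The 250 bases before the RefSeq start of each fibrinogen gene are shown because the 3 neighbours fell together. They are from RefSeq on GRCh38.p14, 5′ to 3′ on the strand of the gene. Short motifs were searched on both strands of the promoters (250 bases before to 50 after the start): AP-1 (TGANTCA, the same on both strands), TEAD (GGAATG), HNF1 (GTTAATNAT) and HNF4 (CAAAGTCCA). Capitals mark a match. FGA holds an HNF1 match on the reverse strand whose leftmost base is at -55 and a TEAD match at -226, FGB holds a TEAD match on the reverse strand at -19, and no match lies in this window of FGG. The windows are chr4:154590743-154590992 (minus strand) for FGA, chr4:154562730-154562979 (plus strand) for FGB and chr4:154612657-154612906 (minus strand) for FGG. For FGB and FGG the RefSeq start differs from that of the GENCODE positions given above. The FGB window ends short of the GENCODE start, and the FGG window lies inside the GENCODE gene.
FGA: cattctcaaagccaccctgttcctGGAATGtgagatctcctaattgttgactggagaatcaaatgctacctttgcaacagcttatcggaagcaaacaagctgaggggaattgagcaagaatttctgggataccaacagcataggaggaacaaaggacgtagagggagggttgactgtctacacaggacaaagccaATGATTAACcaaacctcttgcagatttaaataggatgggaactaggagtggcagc
FGB: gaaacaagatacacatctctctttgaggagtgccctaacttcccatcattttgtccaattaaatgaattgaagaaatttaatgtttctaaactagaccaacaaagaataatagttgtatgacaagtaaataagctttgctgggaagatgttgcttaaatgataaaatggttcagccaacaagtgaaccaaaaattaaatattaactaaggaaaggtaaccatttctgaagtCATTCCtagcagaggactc
FGG: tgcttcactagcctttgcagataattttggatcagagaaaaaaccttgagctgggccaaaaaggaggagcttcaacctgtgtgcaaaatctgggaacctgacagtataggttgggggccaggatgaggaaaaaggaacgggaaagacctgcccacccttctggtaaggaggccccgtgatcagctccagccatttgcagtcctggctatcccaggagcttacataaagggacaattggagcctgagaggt

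Of 15 acute phase proteins, which the liver secretes in inflammation, 9 were lower and 2 higher, with a median of -0.845. The DMSO libraries gave 10 lower and 2 higher, with a median of -0.953. SERPINA3, a protease inhibitor, stood at 692, 722 and 638 CPM in wild type and at 95.3, 82.7 and 53.1 CPM in the 3 libraries of ARID1B-KO (-3.15 ± 0.20, adjusted p = 3.3e-07). The higher members were SAA4 (1.65 ± 0.12) and the iron hormone HAMP (1.18 ± 0.22). None of the 15 lay on the chromosomes set aside. Of 37 complement and coagulation factors 10 were higher and 9 lower: plasminogen (PLG) fell from 42.5 to 2.99 CPM (-3.83 ± 0.14), and kininogen (KNG1) rose from 37.8 to 154 CPM (2.02 ± 0.14).

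Of 27 apolipoproteins and plasma carriers 8 were higher and 2 lower, and with DMSO 4 were higher and 7 lower. The interaction test called 0 of the 27, so these counts do not show a difference between the treatments. APOC3, a regulator of triglyceride-rich particles, was at 0.72 ± 0.10 and the fetuin FETUB at 1.57 ± 0.21, whereas vitronectin (VTN, -1.52 ± 0.18) and APOF (-1.46 ± 0.22) were lower. AHSG was higher at 0.54 ± 0.15 (adjusted p = 0.0185), a call lost without wild-type sorafenib replicate 1 or 3 or ARID1B-KO sorafenib replicate 1 or 2. Among 30 hepatocyte transcription factors and nuclear receptors, 4 were higher and 7 lower. NR5A2 (LRH-1), a nuclear receptor of bile acid and cholesterol genes, stood at 15.9, 19.4 and 13.1 CPM in wild type and at 2.44, 4.72 and 5.04 CPM in ARID1B-KO (-1.99 ± 0.23). NR2F1 (-0.64 ± 0.09) and NR0B2 (-0.65 ± 0.09) were lower and the coactivator PPARGC1A (0.61 ± 0.08) was higher.

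Outputs of other signalling pathways were examined next. Of 15 NF-kB targets and chemokines, 11 were lower and none higher, with a median of -1.18 (12 lower, none higher and -1.02 with DMSO). TNFAIP3, which encodes the feedback inhibitor A20, stood at 53.8, 53.7 and 52.3 CPM in wild type and at 16.9, 17.3 and 16.1 CPM in the 3 libraries of ARID1B-KO (-1.67 ± 0.08, adjusted p = 1.18e-08). The 3 libraries of each group were close together and the groups far apart. The chemokine CCL20 (-2.90 ± 0.21), the adhesion protein ICAM1 (-1.68 ± 0.18) and the subunit NFKB1 (-0.47 ± 0.10) were lower too.

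Of 19 targets of YAP and TEAD, which respond to cell shape and contact, 11 were lower and none higher, with a median of -0.54. The DMSO libraries gave 8 lower and none higher, with a median of -0.18. CCN2, a matrix protein, stood at 140, 133 and 132.3 CPM in wild type and at 45.4, 35.2 and 29.3 CPM in ARID1B-KO (-1.88 ± 0.16, adjusted p = 2.82e-06). CCN1, its relative, was 11.4-fold lower (adjusted p = 9.04e-07). ANKRD1 stood at 9.40, 7.42 and 14.02 CPM against 1.43, 2.20 and 1.98 CPM (-2.46 ± 0.27), and CRIM1 was at -2.76 ± 0.21. Outside the 5 chromosomes set aside, 7 of 15 targets were lower and none higher, with a median of -0.26.

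The 250 bases before the start of CCN2 and ANKRD1 are shown as examples, chosen after their TEAD matches were seen, chr6:131951373-131951622 and chr10:90921088-90921337, both on the minus strand of GRCh38.p14 from RefSeq. CCN2 holds 3 TEAD matches, starting at -169, -104 and -95. ANKRD1 holds TEAD matches at -220 and -128 and an AP-1 match at -195. The promoters of CCN1 and CRIM1 were not analysed here.
CCN2: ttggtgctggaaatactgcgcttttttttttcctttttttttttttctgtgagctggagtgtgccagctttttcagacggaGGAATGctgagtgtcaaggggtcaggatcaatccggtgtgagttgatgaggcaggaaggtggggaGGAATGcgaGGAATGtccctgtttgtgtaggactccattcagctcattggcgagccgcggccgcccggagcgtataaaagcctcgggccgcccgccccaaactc
ANKRD1: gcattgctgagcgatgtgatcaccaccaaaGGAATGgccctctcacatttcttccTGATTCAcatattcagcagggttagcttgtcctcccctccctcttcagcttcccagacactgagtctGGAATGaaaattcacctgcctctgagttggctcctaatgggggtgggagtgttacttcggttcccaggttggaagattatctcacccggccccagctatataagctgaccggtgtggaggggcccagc

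How often these letters occur was counted over all tested genes. Promoters were found for 9861 of the 12821 tested genes by symbol. As letters alone, GGAATG occurred in 10.8% of them, in 11.4% of those called higher and in 12.4% of those called lower. TGANTCA occurred in 4.25% of all tested promoters, 5.34% of those called higher and 3.75% of those called lower, but among genes changed over 2-fold in 5.9% of the higher and 6.73% of the lower. CAAAGTCCA occurred in 0.314%, 0.915% (12 of 1311) and 0.424% (6 of 1414), and GTTAATNAT in 0.477%, 0.686% (9 of 1311) and 0.707% (10 of 1414). Among genes changed over 2-fold, the shares in higher and lower genes were 12.5% and 14.4% for GGAATG, 1.39% and 0.641% for CAAAGTCCA, and 1.39% and 0.962% for GTTAATNAT. These shares are given as a description and were not tested.

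Of 21 WNT and beta-catenin targets, 12 were lower and 3 higher, with a median of -0.42 (12 lower, 3 higher and -0.52 with DMSO). HepG2 is known to carry an activated beta-catenin. The feedback genes AXIN2, NKD1, NOTUM and SP5 were among the lower ones. The secreted inhibitor DKK1 stood at 158, 152 and 126 CPM in wild type and at 12.9, 11.6 and 9.09 CPM in the 3 libraries of ARID1B-KO (-3.70 ± 0.13, adjusted p = 4.11e-09). The stem cell receptor LGR5 fell from 32.2 to 6.71 CPM (-2.26 ± 0.13), and BMP4 rose (1.25 ± 0.10). Of 27 TGF-beta and activin genes 9 were higher and 5 lower, with SMAD6 (1.11 ± 0.16), SMAD7 (0.51 ± 0.09) and ID3 (0.88 ± 0.17) among the higher. Of 25 interferon-stimulated genes 8 were higher and 6 lower: MX2 rose (0.80 ± 0.08), and IFITM3 (-1.45 ± 0.16), IFITM2 (-2.22 ± 0.27) and IFI35 (-0.63 ± 0.08) fell.

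**Figure D3:**
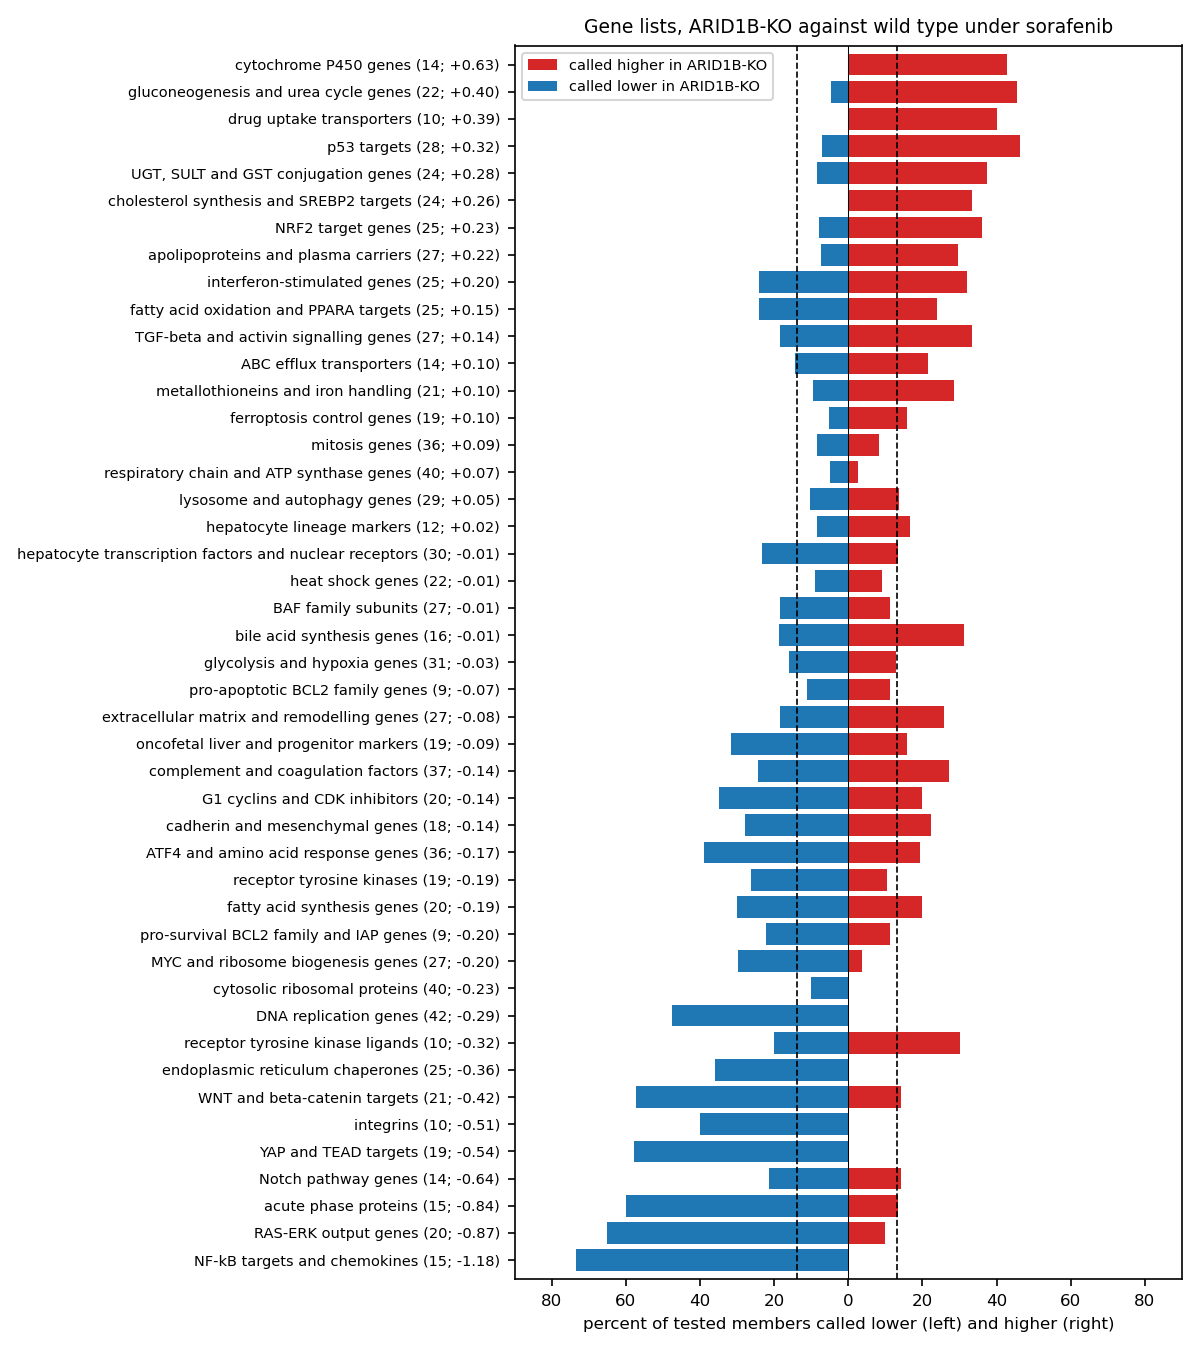
For each gene list with at least 9 tested members (number tested and median log2 fold change in parentheses), the bars give the percent of members called lower in ARID1B-KO under sorafenib (left, blue) and higher (right, red); dashed lines mark the shares over all tested genes, 13.8% lower and 13.2% higher. NF-kB targets, RAS-ERK output and acute phase proteins have the longest blue bars, with 11 of 15, 13 of 20 and 9 of 15 members lower; lists share members.

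DNA replication genes were lower in ARID1B-KO under sorafenib. Of 42 tested, 20 were lower and none higher, with a median of -0.29; with DMSO the same list had 3 lower and 2 higher and a median of 0.01. TK1, the thymidine salvage kinase, stood at 68.4, 56.9 and 62.2 CPM in wild type and at 28.6, 32.2 and 32.4 CPM in ARID1B-KO (-1.01 ± 0.10, adjusted p = 1.11e-05), with -0.79 in DMSO. MCM7, a subunit of the replicative helicase, stood at 168, 148 and 158 CPM against 92.7, 97.5 and 97.7 CPM (-0.72 ± 0.08), and the methylation maintenance factor UHRF1 at 82.7, 72.2 and 77.9 CPM against 39.8, 47.5 and 47.4 CPM (-0.79 ± 0.08). POLA1, the catalytic subunit of the priming polymerase, was at -0.71 ± 0.08. All subunits of this helicase, MCM2, MCM3, MCM4, MCM5, MCM6 and MCM7, were among the lower genes. The interaction test called MCM7 and UHRF1 of the 42, but these calls held in only 3 and 4 of 17 alternative settings. Outside the chromosomes set aside, 16 of 34 members were lower and none higher, and leaving out single libraries gave 15 to 20 lower and 0 to 2 higher. The effective-length offset gave 13 lower and none higher.

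Other genes of the cell cycle moved in both directions. Of 36 mitosis genes 3 were higher and 3 lower, both below the shares over all tested genes. Of 20 G1 cyclins and inhibitors 4 were higher and 7 lower: CCND3 was 2.03-fold lower (adjusted p = 0.000243), and the inhibitors CDKN1A, which encodes p21 (0.61 ± 0.10), and CDKN2A (1.80 ± 0.25) were higher. Of 28 targets of p53, 13 were higher and 2 lower, with a median of 0.32 (0.31 in DMSO). The stress protein SESN1 stood at 57.0, 52.3 and 53.7 CPM in wild type and at 92.9, 105 and 112 CPM in ARID1B-KO (0.92 ± 0.10, adjusted p = 2.12e-05). BTG2 (1.04 ± 0.12), SESN2 (0.71 ± 0.08) and SPATA18 (0.79 ± 0.12) were higher as well.

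Stress responses of protein synthesis differed in part. Of 25 chaperones of the endoplasmic reticulum 9 were lower and none higher, with SDF2L1 (-0.92 ± 0.12), the stress sensor ERN1 (-0.64 ± 0.15), CALR (-0.61 ± 0.15) and CRELD2 (-0.44 ± 0.12); without single libraries the count was 4 to 13, and the CRELD2 call was lost without wild-type sorafenib replicate 1. Of 36 genes of the ATF4 and amino acid response, 7 were higher and 14 lower. NUPR1, a stress-induced regulator, rose from 10.97 to 35.0 CPM (1.67 ± 0.21), while AARS1 (-0.61 ± 0.08) and ALDH1L2 (-1.70 ± 0.30) fell.

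In metabolism, of 24 genes of cholesterol synthesis 8 were higher and none lower, with a median of 0.26. With DMSO more were called, 15 higher and none lower, with a median of 0.53. The interaction test called 1 of the 24. Examples under sorafenib are EBP (0.68 ± 0.10), MSMO1 (0.78 ± 0.13), SC5D (0.62 ± 0.12) and MVK (0.58 ± 0.11). Of 22 genes of gluconeogenesis and the urea cycle 10 were higher and 1 lower, with a median of 0.40 (0.26 outside the chromosomes set aside), among them GOT1 (0.59 ± 0.08), ASS1 (0.69 ± 0.10) and GLS2 (0.73 ± 0.12). Of 16 bile acid synthesis genes 5 were higher and 3 lower. CYP7A1, the rate-limiting enzyme, stood at 20.1, 19.9 and 19.2 CPM in wild type and at 9.85, 8.62 and 5.78 CPM in ARID1B-KO (-1.28 ± 0.17, adjusted p = 0.000126), and -0.18 with DMSO (interaction adjusted p = 0.071). Of 20 genes of fatty acid synthesis 4 were higher and 6 lower, and of 25 of fatty acid oxidation 6 and 6. Of 40 respiratory chain genes 1 was higher and 2 were lower.

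The interaction test asks whether the genotype difference under sorafenib differs from that in DMSO. It called 107 genes, 48 with a more positive difference under the drug (0.374%) and 59 with a more negative one (0.46%). RAB17, a GTPase of epithelial membrane traffic (chromosome 2, 237574322 to 237601614), stood at 23.4, 30.01 and 30.6 CPM in wild type and at 100.3, 95.5 and 102 CPM in ARID1B-KO under sorafenib. The groups were well apart: the log2 fold change was 1.83 ± 0.10, against 0.58 with DMSO, an interaction of 1.25 ± 0.14 (adjusted p = 0.0034). SSUH2 (chromosome 3, 8619386 to 8745040) stood at 21.9, 25.3 and 25.2 CPM against 8.08, 7.93 and 7.90 CPM (-1.60 ± 0.10), and -0.26 with DMSO, an interaction of -1.33 ± 0.13 (adjusted p = 0.00185).

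These 2 were the only ones of 23 named interaction genes that stayed called in all 17 alternative settings, followed by CCDC150 (1.47) and ZNF117 (1.41) in 16, and ETV4 (-0.99) and MRAS (-1.25) in 15. For ZNF117, TGFBR3 and HEY1 the difference called in DMSO did not pass under sorafenib (-0.25, -0.26 and -0.28). The number of calls depended on single libraries: without 1 library it was 5 to 138, and it was 25 or fewer without any library other than wild-type DMSO replicate 1 (73) and ARID1B-KO sorafenib replicate 3 (138). With the effective-length offset 2 genes were called, with the replicate block 19, and with DESeq2 584.

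**Figure D4:**
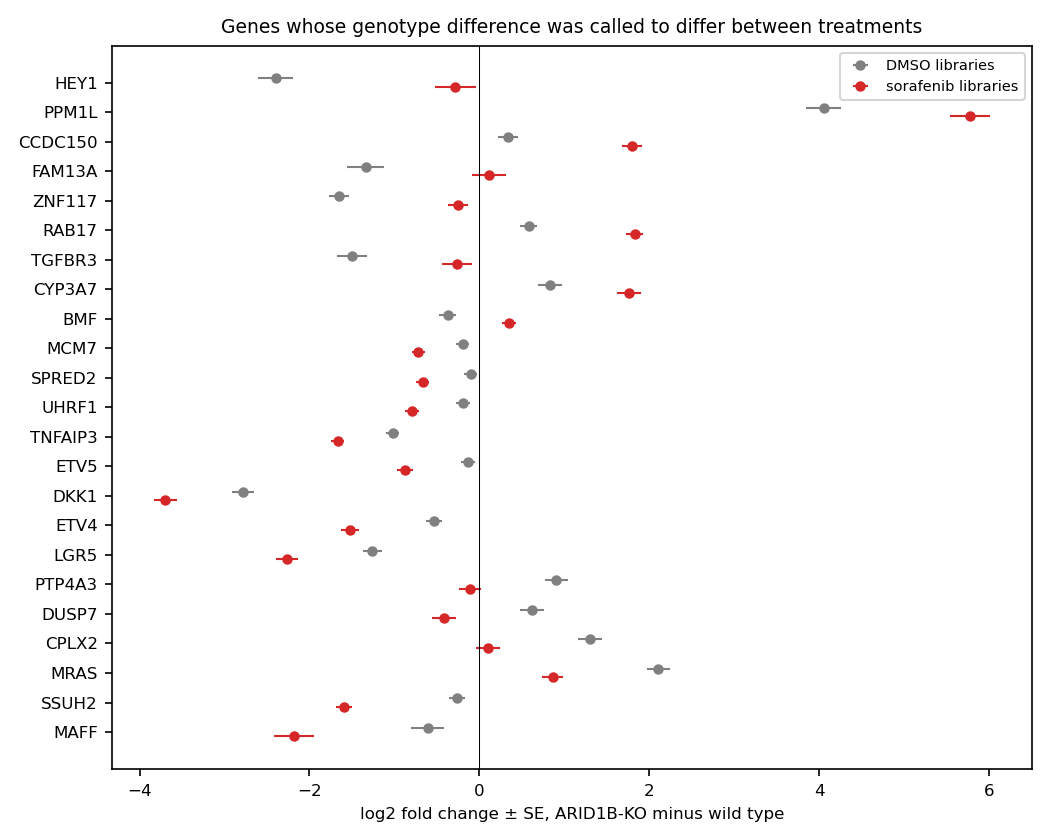
Log2 fold change ± SE (ARID1B-KO minus wild type) of 23 genes with a called interaction, in DMSO (grey) and sorafenib (red), ordered by the interaction. For SSUH2 the difference is -0.26 in DMSO and -1.60 under sorafenib, and for HEY1 it is -2.40 in DMSO and -0.28 under sorafenib.

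Differences also followed chromosomes. Over the 10242 genes that reached 5 CPM, 14% were called higher and 14.9% lower. On chromosome 17, 30.8% of 627 genes were lower and 7.5% higher, with a median log2 fold change of -0.20. On chromosome 6, where ARID1B lies, 26.8% of 485 genes were lower (median -0.12), and on chromosome 5 20.7% of 449 (median -0.10). The reverse held on chromosome 21, where 30.5% of 105 genes were higher and 5.71% lower (median 0.20), and on chromosome 2, with 23.6% of 695 higher (median 0.10). In the DMSO libraries the medians were -0.15, -0.13, -0.10, 0.21 and 0.11 for chromosomes 17, 6, 5, 21 and 2.

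The shifts were located further in windows along the chromosomes. In windows of 20 Mb with at least 15 such genes, 13 of 153 windows had a median beyond 0.2 in either direction, and all 13 had the same sign in DMSO. Chromosome 17 from 40 Mb to its end had medians of -0.29, -0.25 and -0.34, and chromosome 6 from its start to 60 Mb had -0.30, -0.26 and -0.23. The window of chromosome 6 that holds ARID1B, from 140 Mb to 160 Mb, had a median of 0.066, with 8 genes higher and 8 lower. Chromosome 2 from 140 Mb to 240 Mb had 0.27, 0.23, 0.30, 0.23 and 0.21. On chromosome 21 beyond 40 Mb, 23 of 42 genes were higher and 0 lower, with a median of 0.41. DNA copy number was not measured in these data, and its part in these differences was not tested. Over the 9898 tested genes outside chromosomes 2, 5, 6, 17 and 21, a choice made after the medians were seen, 2528 were called (25.5%). Chromosome 11 was not set aside, though its median of -0.085 was near that of chromosome 5 (-0.102). Of its 576 genes, 17.9% were lower and 9.03% higher. Counts outside the 5 chromosomes thus still include a chromosome that leaned lower.

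**Figure D5:**
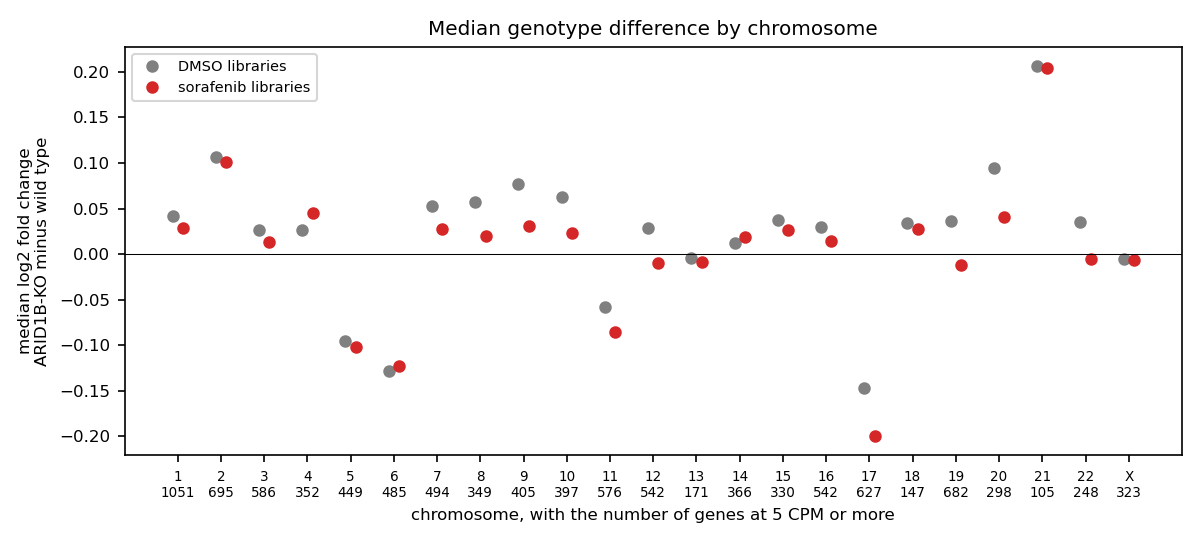
Median log2 fold change (ARID1B-KO minus wild type) of genes with at least 5 CPM on each chromosome, for DMSO (grey) and sorafenib (red) libraries, with the number of genes under each label. Chromosome 17 lies lowest at -0.20 and chromosome 21 highest at 0.20 under sorafenib, with similar values in DMSO.

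The proportions of transcripts within genes were compared with limma on the share of each transcript in the TPM of its gene. Of 20343 transcripts of 7711 genes, 174 (0.855%) were called with a difference of at least 20 percentage points, in 137 genes. Of these 137 genes, 32 were also called in total level, beside 27% of all tested genes, so such calls were not more common among them. For RPL24, a ribosomal protein gene, RPL24-202 went from 94.0%, 97.6% and 98.3% to 23.2%, 1.73% and 16.3% (adjusted p = 0.000444), and its DMSO means were 95.8% and 2.73%.

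Further called transcripts belonged to C3orf33 (C3orf33-201, 95.7% against 0%), TRAPPC6A (TRAPPC6A-204, 0% against 78.6%), SNRPD2 (SNRPD2-203, 0% against 74.5%) and UQCRH (UQCRH-202, 2.38% against 68.3%). The DMSO means of SNRPD2-203 (4.86% and 78.1%) and UQCRH-202 (2.375% and 73.55%) were similar. In wild type with DMSO, however, C3orf33-201 was at 0%, 0% and 89.3%, and TRAPPC6A-204 at 42.9%, 47.1% and 80.4%. Their ARID1B-KO means with DMSO were 0% and 78.5%. Transcripts of a gene overlap in most of their sequence, so a share is an estimate by Salmon rather than a count. The number of calls was unstable: it was 98 on shares of estimated counts, 72 with the replicate block and 70 to 350 without single sorafenib libraries. It was 78 without wild-type replicate 2, 350 without ARID1B-KO replicate 1, 70 without replicate 2 and 87 without replicate 3.

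Markers of cell types other than hepatocytes were checked in the 6 libraries. Of 13 leukocyte markers 7 held 0 counts throughout, PTPRC among them, and of 12 fibroblast and stellate markers 5 did, including DCN and LUM. The leukocyte markers summed to 30.5 to 35.0 CPM in wild type and 32.3 to 48.5 CPM in ARID1B-KO. CD68 was the largest of them, with a mean of 34.3 CPM. Of the 2 that could be tested, CD68 and CD14, 0 were called. The 10 endothelial markers summed to 3.48 to 4.73 CPM in wild type and 9.53 to 13.7 CPM in ARID1B-KO, with KDR and TEK at 0. The 3 that could be tested, LYVE1 (3.47 ± 0.45), VWF (2.00 ± 0.39) and CDH5 (1.42 ± 0.31), were higher. The fibroblast and stellate markers summed to 64.0 to 68.5 CPM against 71.9 to 86.7 CPM, most of it ACTA2 (0.36 ± 0.08), and PDGFRB was lower. Of 10 cholangiocyte markers, which tumour lines of liver can carry, ANXA4 (0.88 ± 0.15) and KRT19 (0.61 ± 0.15) were higher and SOX9 was 1.19-fold lower (adjusted p = 0.0278), a call lost without wild-type sorafenib replicate 2 or 3 or ARID1B-KO sorafenib replicate 2.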

How the data were processed

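RNA with poly(A) tails was sequenced as paired reads from HepG2 cells. The authors quantified transcripts with Salmon against GRCh38, per the submitters' processing notes, with the annotation of Ensembl 109 per the series' design text; the Salmon version, strand setting and bias corrections are not given in the sources used here. The deposited tables hold, per the file headers, an estimated count, a TPM value and an effective length in bases for each transcript in each library. The authors' processing notes also name DESeq2 1.46.0; no table from it was used.

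Estimated counts were summed over the transcripts of each gene with the GENCODE 44 annotation, which matched 165533 of 177456 transcripts (93.3%), and rounded. Counts of unmatched transcripts (2.87% to 3.2% of a library) were left out. Totals were 19739582 to 29398257 per library. After filterByExpr, 12821 of 35810 genes were tested with edgeR 4.0.16 (R 4.3.3): TMM scaling, robust quasi-likelihood fits on all 12 libraries, 1 mean for each of the 4 groups, Benjamini-Hochberg adjusted p under 0.05 over all tested genes, and SE taken as the log2 fold change divided by the root of F. All adjusted p-values of genes come from this test, and those of transcripts from limma 3.58.1. CPM are counts scaled by the TMM library sizes. On simulated counts of 12480 genes, the sorafenib comparison recovered 84 of 100 genes changed 2-fold and 95 of 100 changed 4-fold, with 9 false calls. All 4 groups were simulated from the wild-type sorafenib means, without any other genotype difference. The noise was independent between libraries, with dispersions taken from this same fit. The simulation therefore checks the procedure and does not measure false calls in the data, where 27% of genes were called. Transcript shares are percentages of the gene's TPM, in genes with at least 5 TPM.

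Genes were named by rule: a fixed set, the 15 largest rises and falls with at least 5 CPM, the 4 members of each list with the smallest adjusted p, the 8 largest interactions each way, the 6 largest genes at 0 in one group each way, and the 8 transcripts with the largest difference. The largest rises and falls were taken among called genes without overlap between the sorafenib groups. MCM2 to MCM6, AXIN2, NKD1, NOTUM and SP5 were named outside these rules, after their direction was seen. The counts of 191 named and 168 called genes leave them out. UQCRH-202, at rank 9 by difference of share, was also named outside the rules. The comparison, lists and genes were chosen with earlier results of these data known. Alternatives were RLE scaling, DESeq2 1.42.0, no filter, an effective-length offset, a replicate block, the 6 sorafenib libraries alone, and leaving out each library. Same-numbered libraries of the sorafenib groups did not deviate together (correlations -0.118, -0.0646 and 0.0345), and the main fit did not pair them. Same-numbered DMSO and sorafenib libraries of wild type gave 0.084, 0.0779 and 0.0502, and differently numbered ones -0.0788 to 0.00843. For ARID1B-KO they gave 0.089, -0.0208 and 0.184, against -0.169 to 0.0985. These few correlations cannot settle whether the numbers mark pairs. Promoters are from a RefSeq table on GRCh38.p14, and gene positions from GENCODE 44 on GRCh38. Some results are not reported here.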

Additional observations from a re-analysis of the deposited data

Results flagged for a closer look

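The genes below were singled out because the test of the interaction called a genotype difference under sorafenib that differed from that in DMSO. Values are the log2 fold change (ARID1B-KO over wild type) under sorafenib minus that in DMSO. More positive under the drug were HEY1, a Notch effector (2.12), the phosphatase PPM1L (1.72), CCDC150 (1.47), FAM13A (1.45), the zinc finger gene ZNF117 (1.41), RAB17 (1.25), the TGF-beta co-receptor TGFBR3 (1.24), CYP3A7 (0.93) and BMF (0.72). More negative were the bZIP factor MAFF (-1.57), SSUH2 (-1.33), the RAS relative MRAS (-1.25), CPLX2 (-1.20), the ERK phosphatase DUSP7 (-1.04), PTP4A3 (-1.02), LGR5 (-1.0), ETV4 (-0.99), DKK1 (-0.91), ETV5 (-0.74), TNFAIP3 (-0.65), UHRF1 (-0.60), SPRED2 (-0.57) and MCM7 (-0.52). Of these 23 genes, 10 stayed called with the replicate block, 4 without wild-type sorafenib replicate 2, 2 with the effective-length offset and 23 with DESeq2.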

How the results depend on the processing

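The number of genes that differed under sorafenib was 3460 with RLE scaling, 3936 with DESeq2, 3094 without a filter and 2479 to 3596 without single libraries. The effective-length offset lowered it to 2049, and lowered the DMSO count to 2190; the cause was not tested. All 168 called genes of the 191 named kept their direction under every alternative run, 130 stayed called under all of them, and 24 were lost with the effective-length offset alone. With a replicate block, 3271 genes were called under sorafenib (2782 in the 6 libraries alone), and 166 of the 168 stayed called. The replicate block lowered the interaction calls from 107 to 19 and the transcript calls from 174 to 72. Interaction calls were 584 with DESeq2, 2 with the effective-length offset and 5 to 138 without single libraries. Transcript calls were 98 on shares of estimated counts and 70 to 350 without single libraries. Signs turned for genes that were not called: ARID1A with the effective-length offset (0.045), and, without single libraries, ABCG2 (-0.080 to 0.056; above 0 without wild-type sorafenib replicate 2 or ARID1B-KO sorafenib replicate 3), CYP3A4 (-0.12 to 0.65; below 0 without wild-type replicate 2 or ARID1B-KO replicate 1), CDH1 (-0.029 to 0.47; below 0 without ARID1B-KO replicate 1) and FAM13A (-0.023 to 0.22; below 0 without ARID1B-KO replicate 3). BORCS7-ASMT (0 to 10.69) and ENSG00000276076 (-9.60 to 0) went to 0 without the only sorafenib library that held them, ARID1B-KO replicate 1 and wild-type replicate 1. Counts near 0 limit CYP3A4 and the genes absent from 1 genotype.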
